A study of Mus musculus with 12 samples.

Results

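The genes described here are 34 interferon-stimulated genes, a list of transcripts that type I interferon is known to induce, read in liver cells enriched for macrophages from mice with a red cell defect and from littermate controls. The members were taken by name from the count table. All 34 had counts, of 25700 gene identifiers in the table, and all 34 were among the 13844 genes with enough counts to be tested.

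Type I interferons (interferon alpha and beta) bind the receptor made of Ifnar1 and Ifnar2 on nearly every cell. The receptor's kinases, Jak1 and Tyk2, activate Stat2, which joins Irf9 in a complex that binds the interferon-stimulated response element, a short sequence in the promoters of antiviral genes. Many of the same genes also answer to interferon gamma, which acts through its own receptor (Ifngr1 and Ifngr2), Jak1 and Jak2. In the liver, Kupffer cells, the resident macrophages, take up ageing red cells and particles from the portal blood, and interferons are among the signals that change their state.

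The study compared mice homozygous for the sph allele of Spta, the gene of alpha-spectrin in the red cell skeleton (sph/sph, which have fragile spherical red cells and haemolytic anaemia), with littermate wild-type mice (WT, wt/wt in the labels). Mice of 8 to 10 weeks, male by the labels, were injected into the peritoneum with saline or with an antibody that activates the costimulatory receptor CD40 (anti-CD40) at 20 mg/kg, and liver cells were taken at 30 h. Each genotype and treatment has 3 libraries (called, for example, WT saline and sph/sph anti-CD40), read from separate mice by the design text. Non-parenchymal cells were enriched on beads with an antibody to F4/80, a macrophage surface protein, so the libraries hold a bead-enriched mixture and not a sorted population, and fewer cells of a type and less RNA per cell cannot be told apart. The control columns are named heterozygous in the table and wild type in the labels, and the genotype label is used here. Library letters A to C follow the column order within a group and were not used to pair libraries. Under each treatment the column names give 1 number in common to the A libraries of both genotypes, with no statement of what it marks, and none to B or C.

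Total counts ran from 14991250 to 18984067 per library, and levels are given as CPM, counts scaled to a library of 1000000 on library sizes adjusted by TMM. The A library of every group had 0 counts over 4 Y-linked genes, against 2436 to 4055 counts in the other 8 libraries, although the labels call the mice male. The levels of cell type markers differed between groups. Adgre1, the gene of the bead target F4/80, was at 1579 to 1942 CPM in WT saline, 1429.9 to 1907 in sph/sph saline and 1101 to 2237 in sph/sph anti-CD40, but at 173, 51.4 and 39.8 CPM in WT anti-CD40 A, B and C. Csf1r, the receptor for the macrophage growth factor, went from 5831 to 6245 CPM in WT saline to 186 to 539 in WT anti-CD40, and was at 2019 to 2970.4 in sph/sph anti-CD40. The sum of 8 general macrophage markers (none at 0 in any group) was 14239 to 16370.2 CPM in WT saline and 6729 to 13084 in WT anti-CD40, where the lysozyme gene Lyz2 alone had 5849.8 to 10516 CPM. Markers of Kupffer cells (7 genes, none at 0 in any group) summed to 24656 to 28855 CPM in WT saline and to 391 to 1046 in WT anti-CD40. They summed to 30947 to 44486 CPM in sph/sph saline and 19634 to 35553 in sph/sph anti-CD40, but there the scavenger receptor Marco made up a large part (means of 11326 and 14778 CPM, against 654 in WT saline). The Kupffer cell lectin Clec4f had means of 7696 CPM in sph/sph saline and 2099 in sph/sph anti-CD40, and Vsig4 of 3105 and 1131. Markers of recruited monocytes (7 genes) summed to 119 to 281 CPM in WT saline, 681 to 1426 in WT anti-CD40, 75.8 to 219 in sph/sph saline and 358 to 1559 in sph/sph anti-CD40. Erythroid markers (6 genes) summed to 3688 to 13385 CPM in the 6 sph/sph libraries and to 23.9 to 248 in the 6 WT libraries. The part of these differences in the results below was not tested.

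Promoter windows are shown for members that carried the highest response to anti-CD40, because the response element that names this gene family can be read in them. The response element was searched as GAAA, any 2 bases and GAAA again, on both strands, in the bases from 250 before to 50 after each start, and the windows come from RefSeq on GRCm38.p6. Matches are in capitals, and each line is the 250 bases before the start, 5′ to 3′ on the strand of the gene. Isg15 has 3 overlapping matches, the first beginning 78 bases before the start, and Rsad2 has 1 match on the opposite strand that begins 120 bases before it.
Isg15, chr4:156200819-156201068, minus strand: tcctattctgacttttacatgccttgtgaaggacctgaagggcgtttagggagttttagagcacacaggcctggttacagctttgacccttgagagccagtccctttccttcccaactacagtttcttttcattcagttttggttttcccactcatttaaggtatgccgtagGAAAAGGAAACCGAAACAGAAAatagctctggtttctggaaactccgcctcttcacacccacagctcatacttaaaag
Rsad2, chr12:26456453-26456702, minus strand: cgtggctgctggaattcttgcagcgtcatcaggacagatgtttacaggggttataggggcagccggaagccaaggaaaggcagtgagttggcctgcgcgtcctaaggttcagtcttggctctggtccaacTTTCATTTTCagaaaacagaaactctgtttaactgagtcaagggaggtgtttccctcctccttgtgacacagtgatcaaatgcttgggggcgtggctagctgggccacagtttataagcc
Of the 34 members, 25 had a promoter window, and 13 of these 25 (52%) held the response element, against 1079 of 27025 genes (3.99%). The members with it were Bst2, Ddx58, Eif2ak2, Ifih1, Ifit1, Ifit3, Ifitm3, Isg15, Oas1a, Oas3, Rsad2, Stat2 and Trim30a. The gamma-activated site, a motif of genes that answer to interferon gamma, searched as TTCNNNGAA (no overlap with the response element was required or excluded), was in 7 of 25 members (28%) and in 9.55% of all genes. A match is a description of these letters and not a site of binding. The windows of Irf7 and Irf9 held no match to either motif.

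Several members lie side by side in the genome (GENCODE annotation of GRCm38). Ifit1, Ifit2 and Ifit3 share chromosome 19 between 34550694 and 34650009. Oas1a, Oas2 and Oas3 share chromosome 5 between 120730333 and 120907521, and Oasl1 and Oasl2 lie on the same chromosome between 114896936 and 114937915. Mx1 (97447035 to 97462907) and Mx2 (97535308 to 97560900) are neighbours on chromosome 16, and Rsad2 (26442746 to 26456452) and Cmpk2 (26469204 to 26479837) on chromosome 12. Neighbours did not always get the same call, as the Oas genes below show. Exons of 6 members (Ifi35, Oasl1, Usp18, Irf7, Dhx58 and Eif2ak2) overlap a gene on the other strand and those of 5 (Irf9, Rtp4, Parp14, Sp100 and Herc6) a gene on the same strand, and Ifit3, Oas1a and Trim30a have near-identical copies, so their counts are less certain.

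In saline-injected wild-type mice the family was already expressed. Per exon length (RPKM, which divides CPM by the exon length of the gene, mean of 3 libraries of WT saline), the highest levels were those of Ifitm3, a membrane protein that blocks viral fusion (952 RPKM), Ifi27l2a (560.2 RPKM), Irf7, the factor that amplifies interferon production (164 RPKM), and Bst2, the tetherin that holds budding virus at the cell surface (146 RPKM). The lowest were those of Isg20, an exonuclease that degrades RNA (3.31 RPKM), Mx2 (4.04 RPKM) and Ifi44 (4.26 RPKM). Within WT saline the members differed little between libraries: the highest library was a median of 1.22 times the lowest, against 1.28 times for all genes tested with counts in each library.

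The libraries of a group did not always agree, and 1 library stands apart for these genes. In sph/sph anti-CD40, library C was the lowest of its group for all 34 members, whereas 37.4% of all genes tested were lowest there. For 30 of the 34 members C was below the lowest sph/sph saline library, and only Sp100 was above the highest one. Libraries A and B were both above every sph/sph saline library for 31 members, against 26.9% of all genes tested. The highest library of sph/sph anti-CD40 was a median of 4.11 times the lowest for the members and 1.71 times for all genes, and for Isg15 it was 28.8 times. Other markers of C differed too, here in the order C, A and B. B cell markers (5 genes) summed to 1613, 101 and 40.9 CPM, and plasmacytoid dendritic cell markers (7 genes) to 394, 79.3 and 78.0. Of that sum in C, Ly6d made up 248 CPM and Tcf4 104 CPM, and Siglech was at 19.4, 0.553 and 0.148 CPM. Macrophage markers summed to 7837, 13623 and 14235 CPM, of which Lyz2 had 2607, 8652 and 6909. Csf1r (2765, 2019 and 2970.4 CPM) and Mertk were not lowest in C, but the other macrophage markers were. Of the Kupffer cell markers, Clec4f (3869, 828 and 1601 CPM), Vsig4, Clec1b and Folr2 were highest in C and Timd4, Cd5l and Marco lowest. Monocyte markers summed to 358, 1559 and 915 CPM, hepatocyte markers to 3313, 1113 and 1204, and sinusoidal endothelial markers to 1969, 594 and 1061 (the last 2 lists with 5 genes each). Erythroid markers summed to 3688, 10607 and 13385 CPM. The part of those cells in the low values of C was not tested. The library is kept in the main fit, and counts of calls are also given without it where they move by over 1.5 times. C was set apart by its low values of these same members. Leaving it out therefore raises the sph/sph anti-CD40 level of each of the 34. Results without C describe that group by libraries A and B and are not a separate test.

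**Figure D1:**
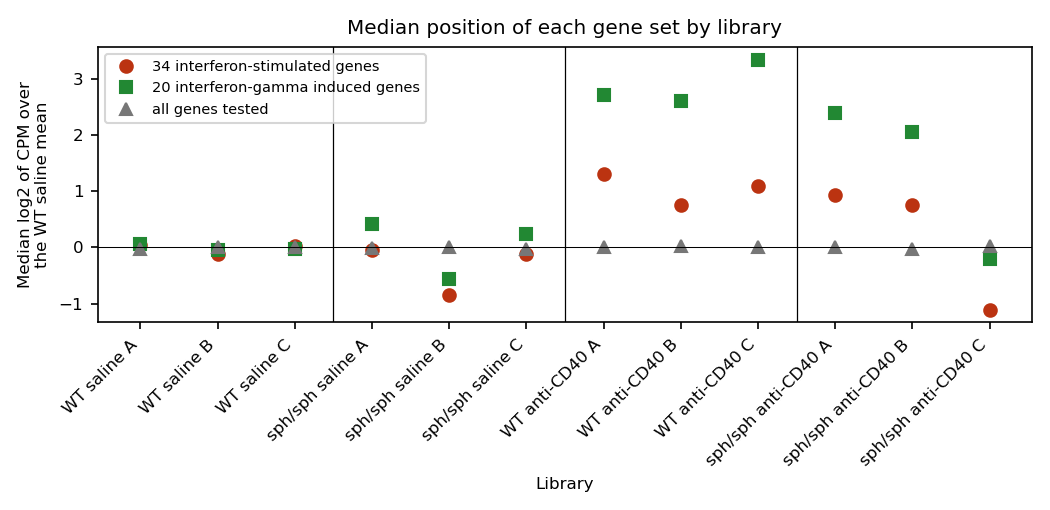
Median log2 of CPM over the WT saline mean (y axis) in each of the 12 libraries (x axis) for the 34 interferon-stimulated genes, 20 genes induced by interferon gamma, and all genes tested. The members sit at 1.31, 0.76 and 1.10 in WT anti-CD40 A to C, at 0.93 and 0.76 in sph/sph anti-CD40 A and B, and at -1.11 in sph/sph anti-CD40 C, while all genes stay between -0.02 and 0.03.

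The plot of median position by library shows the same for the whole family. Among the saline libraries, sph/sph saline B was also low, with a median of -0.85 on the log2 scale against the WT saline mean, whereas sph/sph saline A and C were at -0.05 and -0.11. B was the lowest of its group for 33 of the 34 members, against 38.6% of all genes tested. In sph/sph saline the highest library was a median of 1.74 times the lowest for the members and 1.32 times for all genes. Hepatocyte markers summed to 6100.1 CPM in B, 2161 in A and 1011 in C, and their part was not tested. The other gene set in the plot, 20 genes induced by interferon gamma such as the guanylate-binding proteins, was at 2.39 and 2.06 in sph/sph anti-CD40 A and B and at -0.20 in C.

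In wild-type mice, part of the family rose under anti-CD40. Of the 34 members, 14 rose and 1 fell, and the median member was 0.98 higher on the log2 scale, against a median of 0.05 over all genes tested. This treatment also moved much of the transcriptome: 19.4% of all genes tested rose and 19.7% fell. In the same treated libraries Adgre1, Csf1r and Kupffer cell markers were low and monocyte markers high, as given above, and T and NK cell markers (11 genes) summed to 190.3 to 1446 CPM, against 14.8 to 25.3 in WT saline. Their part in the response was not tested. For 31 members the log2 fold was above 0. Groups did not overlap for 26 members that were higher and 2 that were lower (Oas2 and Rtp4), against 29.3% and 28.0% of all genes. Calls are from edgeR's quasi-likelihood test with Benjamini-Hochberg adjusted p under 0.05 over 13844 genes, and folds are given with their approximate SE.

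The ubiquitin-like system was called throughout: Isg15, Usp18 and Herc6 (3 of 3) rose. Isg15 encodes the ubiquitin-like protein that is conjugated to other proteins after interferon. Libraries are given in the order A, B and C throughout. Under saline it was at 19.2, 16.9 and 20.5 CPM, and under anti-CD40 at 392, 227 and 278 CPM. All treated libraries lay far above all saline ones, and the log2 fold was 3.98 ± 0.89 (SE, edgeR adjusted p = 0.00628), the highest of the 34 members. Usp18, the protease that removes Isg15 and also restrains the interferon receptor, rose by 2.13 ± 0.60 (log2, adjusted p = 0.0185), and Herc6, the ligase that attaches Isg15 in mice, by 1.42 ± 0.41 (adjusted p = 0.0213).

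Among membrane, GTPase and nucleotide effectors 4 of 6 rose. Rsad2, or viperin, which makes a chain-terminating nucleotide, was at 60.7, 50.9 and 67.1 CPM under saline and at 402, 416 and 668 CPM under anti-CD40. The groups did not overlap, and the log2 fold was 3.06 ± 0.55 (adjusted p = 0.00204). Its genomic neighbour Cmpk2, a nucleotide kinase, rose by 1.60 ± 0.48 (adjusted p = 0.0239).
Bst2 was at 133, 128 and 135 CPM under saline and at 755, 553 and 856 CPM under anti-CD40, a log2 fold of 2.45 ± 0.44 (adjusted p = 0.00209). Bst2 is also a known surface marker of plasmacytoid dendritic cells. Their 7 marker genes summed to 69.6 to 113 CPM in WT saline and to 113, 342 and 367 CPM in WT anti-CD40 A, B and C. Tcf4 alone had 66.1 to 109 CPM in WT saline and 85.8, 143 and 189 CPM in WT anti-CD40. The part of these cells in the Bst2 level was not tested. Mx2, a dynamin-like GTPase, rose by 1.24 ± 0.40 (adjusted p = 0.0341). Its neighbour Mx1, which traps viral nucleoprotein, was at 30.4, 24.6 and 24.3 CPM under saline and at 192, 58.1 and 57.1 CPM under anti-CD40. The groups of Mx1 did not overlap, but library A was over 3 times the other treated libraries, and the log2 fold of 1.95 ± 0.83 did not pass the test (adjusted p = 0.0856). Ifitm3 also missed it (0.69 ± 0.41, adjusted p = 0.202).

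The RNA-directed effectors were divided: 3 of 10 rose, 1 fell and 6 did not pass the test. Ifit1, which binds RNA that lacks the host cap methylation, was at 15.7, 18 and 15.7 CPM under saline and at 133, 92.4 and 129 CPM under anti-CD40 (log2 fold 2.85 ± 0.62, adjusted p = 0.00585). Isg20 was at 7.13, 5.93 and 5.43 CPM under saline and at 41.7, 37.2 and 30.0 CPM under anti-CD40 (2.56 ± 0.37, adjusted p = 0.000641), the smallest p of the members. Both genes were higher in every treated library.
Oas2 went the other way. It makes the 2-5A messenger that activates the RNA-cleaving enzyme RNase L, and it was at 234, 222 and 224 CPM under saline and at 96.7, 41.2 and 39.6 CPM under anti-CD40. Every treated library was below every saline library, and the log2 fold was -1.93 ± 0.48 (adjusted p = 0.0109). The adjoining Oas1a and Oas3, with the same kind of enzyme, had log2 folds of 0.38 ± 0.48 and 0.65 ± 0.76 and did not pass the test.
Oasl1, an Oas-like protein known to limit translation of Irf7, was at 72.2, 45.9 and 52.5 CPM under saline and at 323, 129 and 185 CPM under anti-CD40. The groups did not overlap, yet its log2 fold of 1.9 ± 0.82 missed the threshold (adjusted p = 0.0885). Ifit2 rose by 1.9 ± 0.56 (adjusted p = 0.0214).

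Of the 4 sensors only Zbp1 was called. Zbp1 binds left-handed nucleic acid and can start necroptosis. It was at 78.2, 56.4 and 54.7 CPM under saline and at 497, 280.3 and 299 CPM under anti-CD40, with no overlap and a log2 fold of 2.51 ± 0.71 (adjusted p = 0.0186). The RNA helicases Ddx58 (RIG-I), Ifih1 (MDA5) and Dhx58 (LGP2) had log2 folds of 0.58, 0.96 and 0.63 and did not pass the test.

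The transcription factors of the pathway itself had the lowest median log2 fold of the 6 roles, 0.27, and 0 of 3 (Stat2, Irf9 and Irf7) were called. Irf9, the DNA-binding part of the interferon complex, was at 105, 102 and 101 CPM under saline and at 134, 101 and 114 CPM under anti-CD40, so the groups overlapped (0.19 ± 0.16, adjusted p = 0.377). Stat2 was at 178, 177 and 165 CPM under saline and at 351, 205 and 294 CPM under anti-CD40 (0.71 ± 0.35, adjusted p = 0.129). Irf7 was at 839, 450.1 and 569 CPM under saline and at 1277, 445 and 516 CPM under anti-CD40, with libraries B and C inside or just below the saline range (0.27 ± 0.72, adjusted p = 0.787).

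Of the 8 remaining members 3 rose. Ifi44, a GTP-binding protein of uncertain function, was at 25.4, 22.5 and 30.5 CPM under saline and at 95.8, 83.0 and 173 CPM under anti-CD40 (2.16 ± 0.59, adjusted p = 0.0165). Ifi35 rose by 1.23 ± 0.35 (adjusted p = 0.0186) and Sp100, a nuclear body protein, by 0.65 ± 0.19 (adjusted p = 0.0207). Ifi27l2a and Rtp4 did not pass the test. Ifi27l2a was at 291, 127 and 359 CPM under saline and at 414, 188 and 131 CPM under anti-CD40, with groups that overlapped (-0.09 ± 0.67). Rtp4, a receptor transporter protein, was at 176, 152 and 165 CPM under saline and at 138, 114 and 145 CPM under anti-CD40 (-0.31 ± 0.40, adjusted p = 0.553).
Trim30a, Parp14 and Xaf1 had log2 folds of 0.61, 0.90 and 0.99 and were not called.

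The number of members called higher in wild-type mice changed with single libraries. It was 7, 5 and 9 without WT saline A, B or C, and 7 without WT anti-CD40 C. The share of all genes called in those fits is not given, so these counts cannot be set against it. Without sph/sph anti-CD40 C, 26 members rose and 1 fell (23.4% of all genes rose and 23.4% fell). That library belongs to neither group but enters the shared estimate of spread. Without the 4 libraries that have no Y-linked counts, 3 members rose (Rsad2, Isg20 and Bst2) and Oas2 fell (7.78% and 12.5% of all genes). The share of members that rose was then near that of all genes, and the share that fell below it. Within those A libraries alone the median log2 ratio of the members was 1.32 and within B and C it was 0.98.

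Of the members with a promoter window, the response element was present in 4 of 11 that rose in wild-type mice and in 9 of 14 that were not called higher.

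**Figure D2:**
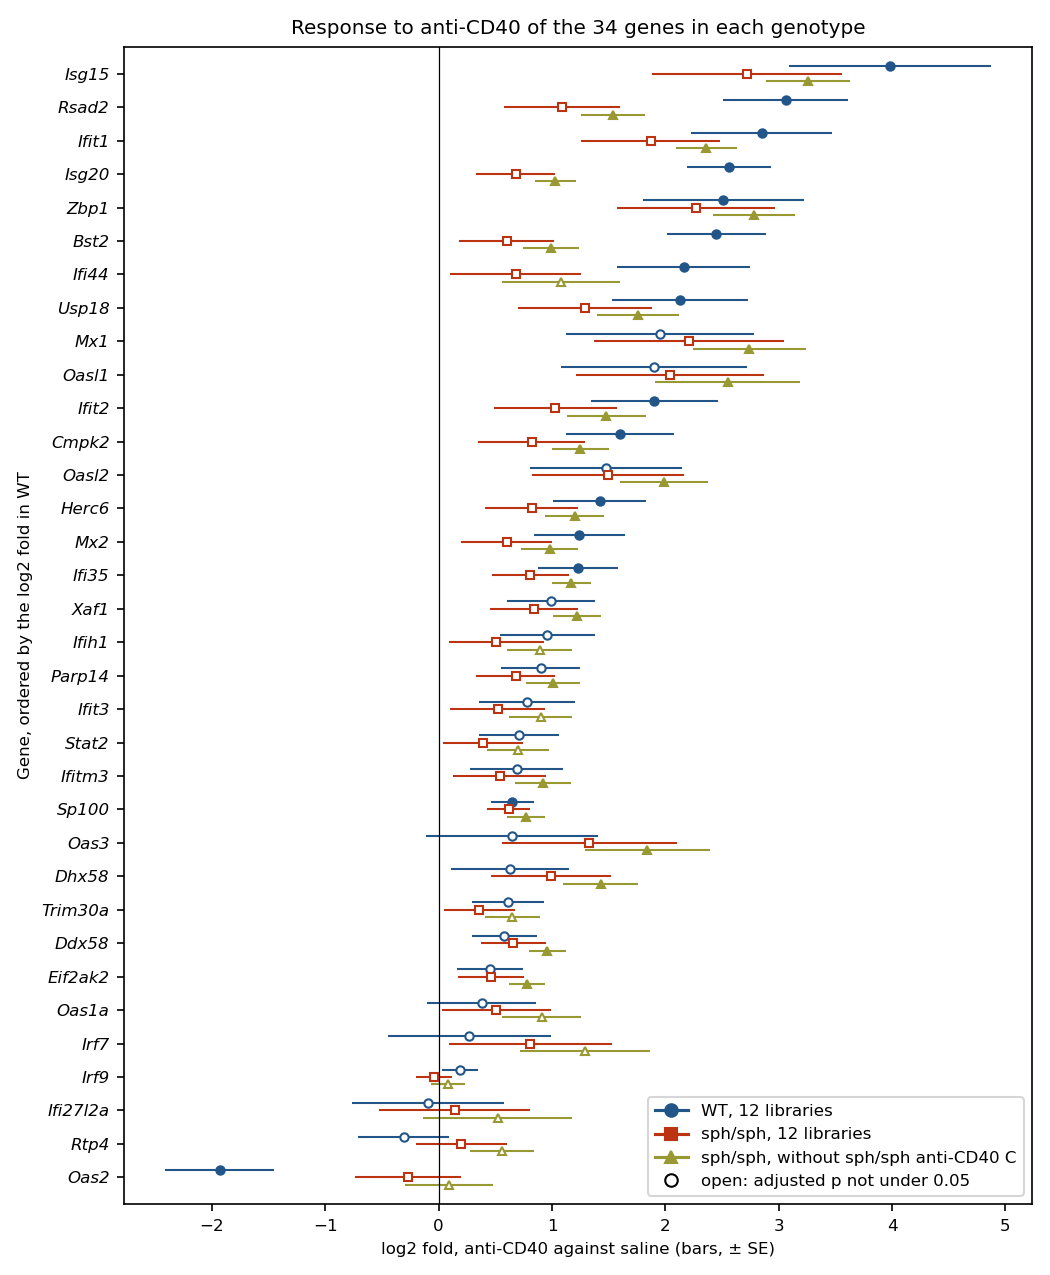
Log2 fold of anti-CD40 against saline (x axis, bars are ± SE) for each of the 34 genes (y axis, ordered by the fold in WT): circles, WT; squares, sph/sph; triangles, sph/sph without sph/sph anti-CD40 C; filled symbols passed an adjusted p of 0.05. The squares are all open, 14 circles right of 0 and that of Oas2 left of 0 are filled, and 23 triangles are filled.

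In sph/sph mice the response could not be called with all libraries. With edgeR 0 of 34 members passed in either direction (0.578% of all genes rose and 0.202% fell), 9 members had an unadjusted p under 0.05 (as had 2901 of 13844 genes), limma-voom called 0, and DESeq2 called Zbp1, Isg15 and Ifit1 higher. Sp100 was the 1 member whose groups did not overlap, with the treated libraries higher, against 10.1% of all genes. The median member was 0.68 higher on the log2 scale and 32 members were above 0, against a median of 0.04 over all genes. Without sph/sph anti-CD40 C, 23 members rose and 0 fell (9.83% and 7.04% of all genes). The median was then 1.06, and all 34 log2 folds were above 0. As C was the lowest library of its group for all 34 members, the direction of this shift was fixed by leaving it out.

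The values in each library show where C lay. Isg15 was at 36.0, 18 and 36.3 CPM under saline, and under anti-CD40 at 383, 198 and 13.3 CPM. Libraries A and B were within or near the wild-type treated range, and C was below every sph/sph saline library. The log2 fold was 2.72 ± 0.84 (adjusted p = 0.120) with all libraries and 3.26 ± 0.37 (adjusted p = 0.00126) without C.
Zbp1 was at 63.0, 29.3 and 60.8 CPM under saline and at 385, 323 and 32.2 CPM under anti-CD40 (2.27 ± 0.70, adjusted p = 0.120, and 2.78 ± 0.36, adjusted p = 0.00194, without C). Mx1 was at 24.3, 12.2 and 20.2 CPM under saline and at 137, 118 and 7.39 CPM under anti-CD40 (2.21 ± 0.84, adjusted p = 0.177, and 2.74 ± 0.50, adjusted p = 0.00804, without C). Both had A and B high and C below the saline range or near its low end.
Oasl1 was at 30.8, 5.22 and 11.9 CPM under saline and at 122, 65.8 and 9.39 CPM under anti-CD40 (2.04 ± 0.83, adjusted p = 0.197, and 2.55 ± 0.64, adjusted p = 0.0259, without C). Ifit1 was at 16.6, 7.84 and 12.6 CPM under saline and at 67.4, 59.9 and 7.72 CPM under anti-CD40 (1.87 ± 0.61, adjusted p = 0.132, and 2.36 ± 0.27, adjusted p = 0.00126, without C). Rsad2 was at 139, 79.7 and 119 CPM under saline and at 347, 311 and 61.5 CPM under anti-CD40 (1.09 ± 0.51, adjusted p = 0.252, and 1.54 ± 0.28, adjusted p = 0.00792, without C).
Rsad2 started higher in sph/sph saline than in WT saline, and its groups did not overlap there.

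The 3 factors were again not called, with or without C. Stat2 was at 213, 123 and 204 CPM under saline and at 315, 274 and 118 CPM under anti-CD40 (0.39 ± 0.35, adjusted p = 0.543). Irf9 was at 98.3, 80.4 and 102 CPM under saline and at 104, 94.8 and 73.6 CPM under anti-CD40 (-0.04 ± 0.16, adjusted p = 0.906). Irf7 was at 414, 132 and 243 CPM under saline and at 848, 445 and 86.6 CPM under anti-CD40 (0.81 ± 0.72, adjusted p = 0.544). Irf9 kept the narrowest range of the 34 members in sph/sph anti-CD40, 1.42 times from lowest to highest library.

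Oas2, which fell in wild-type mice, was at 195, 104 and 193 CPM in the saline libraries of sph/sph and at 193, 159 and 55.1 CPM in sph/sph anti-CD40. Libraries A and B stayed within the saline range, and the log2 fold was -0.27 ± 0.47 (adjusted p = 0.777), or 0.09 ± 0.39 (adjusted p = 0.893) without C. Rtp4 was at 161, 77.8 and 162 CPM under saline and at 218, 179 and 63.9 CPM under anti-CD40 (0.20 ± 0.40, adjusted p = 0.807). Ifi27l2a was at 205, 90.7 and 259.6 CPM under saline and at 402, 136 and 75.7 CPM under anti-CD40 (0.14 ± 0.67, adjusted p = 0.922).

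**Figure D3:**
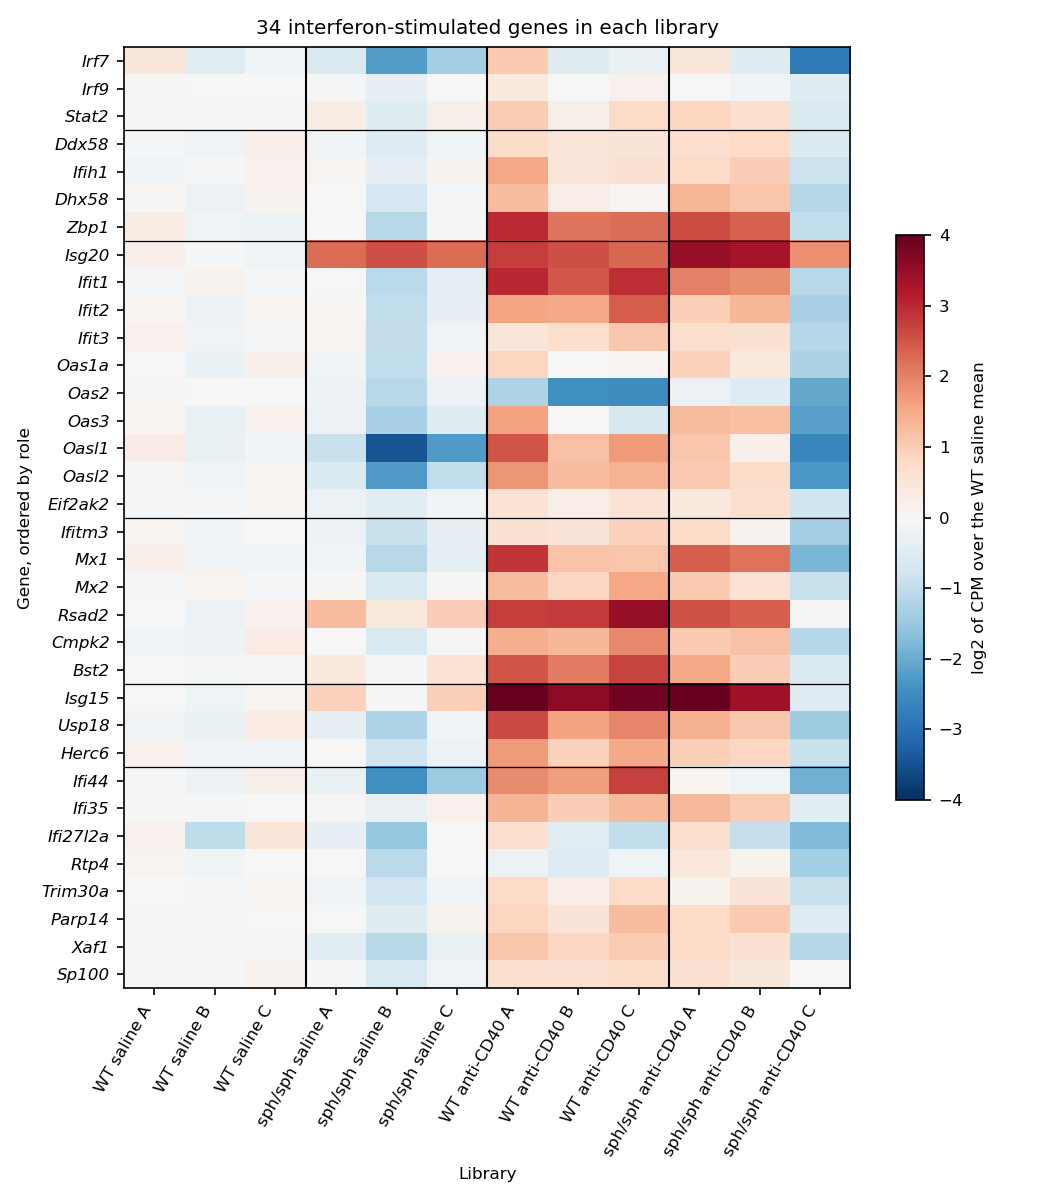
Log2 of CPM over the WT saline mean (colour, limits -4 to 4) for the 34 genes (rows, ordered by role) in the 12 libraries (columns, 3 per group). The column of sph/sph anti-CD40 C is blue for nearly every gene, with 2 of 34 above the WT saline mean, whereas sph/sph anti-CD40 A and B have 33 and 29 above it.

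Under anti-CD40, the cells enriched from sph/sph mice had lower levels of 2 members than those from wild-type mice and higher levels of none (11.5% of all genes were higher and 6.19% lower). The 2 were Ifi44 and Bst2, a share of the members near that of all genes. The median member was -0.53 on the log2 scale, against 0.08 over all genes, and the groups did not overlap for 11 members that were lower and for 0 that were higher, against 11.7% and 16.7% of all genes. Without sph/sph anti-CD40 C the median was -0.13. In that fit 3 members were lower (Ifi44, Bst2 and Ifit1) and 2 higher (Isg20 and Oas2), with 10.8% of all genes lower and 13.5% higher. Neither share of the members was above that of all genes.

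Ifi44 was at 27.8, 23.4 and 6.96 CPM in sph/sph anti-CD40, against the 83.0 to 173 CPM of WT anti-CD40 given above. All 3 sph/sph libraries lay below every wild-type one, and the log2 difference was -2.60 ± 0.61 (adjusted p = 0.0160), or -2.19 ± 0.57 (adjusted p = 0.0222) without C. Bst2 was at 388, 263 and 88.1 CPM, below the 553 to 856 CPM of WT anti-CD40 in every library, with a log2 difference of -1.55 ± 0.43 (adjusted p = 0.0323), or -1.14 ± 0.26 (adjusted p = 0.0140) without C. In sph/sph saline the same genes were at 21.9, 4.81 and 9.43 CPM (Ifi44) and at 172, 124 and 193 CPM (Bst2). Plasmacytoid dendritic cell markers summed to 79.3, 78.0 and 394 CPM in sph/sph anti-CD40. Of these sums Tcf4 made up 61.8 and 72.9 CPM in A and B, and Ly6d 248 CPM in C. Siglech was at 0.553, 0.148 and 19.4 CPM there, against 2.59, 48.6 and 36.7 CPM in WT anti-CD40. Ly6d alone of these markers had a higher mean in sph/sph anti-CD40 (88.4 against 63.9 CPM). The part of these cells in the Bst2 difference was not tested.
Isg20 was at 69.3, 60.9 and 21.7 CPM in sph/sph anti-CD40, with A and B above every WT anti-CD40 library and C below them all (0.48 ± 0.35, adjusted p = 0.379, and 0.85 ± 0.18, adjusted p = 0.0103, without C). The log2 difference of Oas2 was 1.20 ± 0.47 (adjusted p = 0.113), and 1.58 ± 0.39 (adjusted p = 0.0180) without C. That of Isg15 was -0.59 ± 0.79 with C and -0.04 ± 0.36 without it, and neither passed the test.

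The number of members lower in sph/sph changed with single libraries. It was 1 without WT saline B, WT saline C, sph/sph saline A, WT anti-CD40 A or sph/sph anti-CD40 B. It was 0 without WT anti-CD40 C or when only the groups compared were fitted, and 1 member was called higher without WT anti-CD40 A. The share of all genes called in those fits is not given, so these counts cannot be set against it. Without the 4 libraries that have no Y-linked counts, Ifi44 alone was lower and 0 members were higher (2.10% and 6.26% of all genes). The median log2 ratio of the members was -0.28 within the A libraries and -0.70 within B and C.

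**Figure D4:**
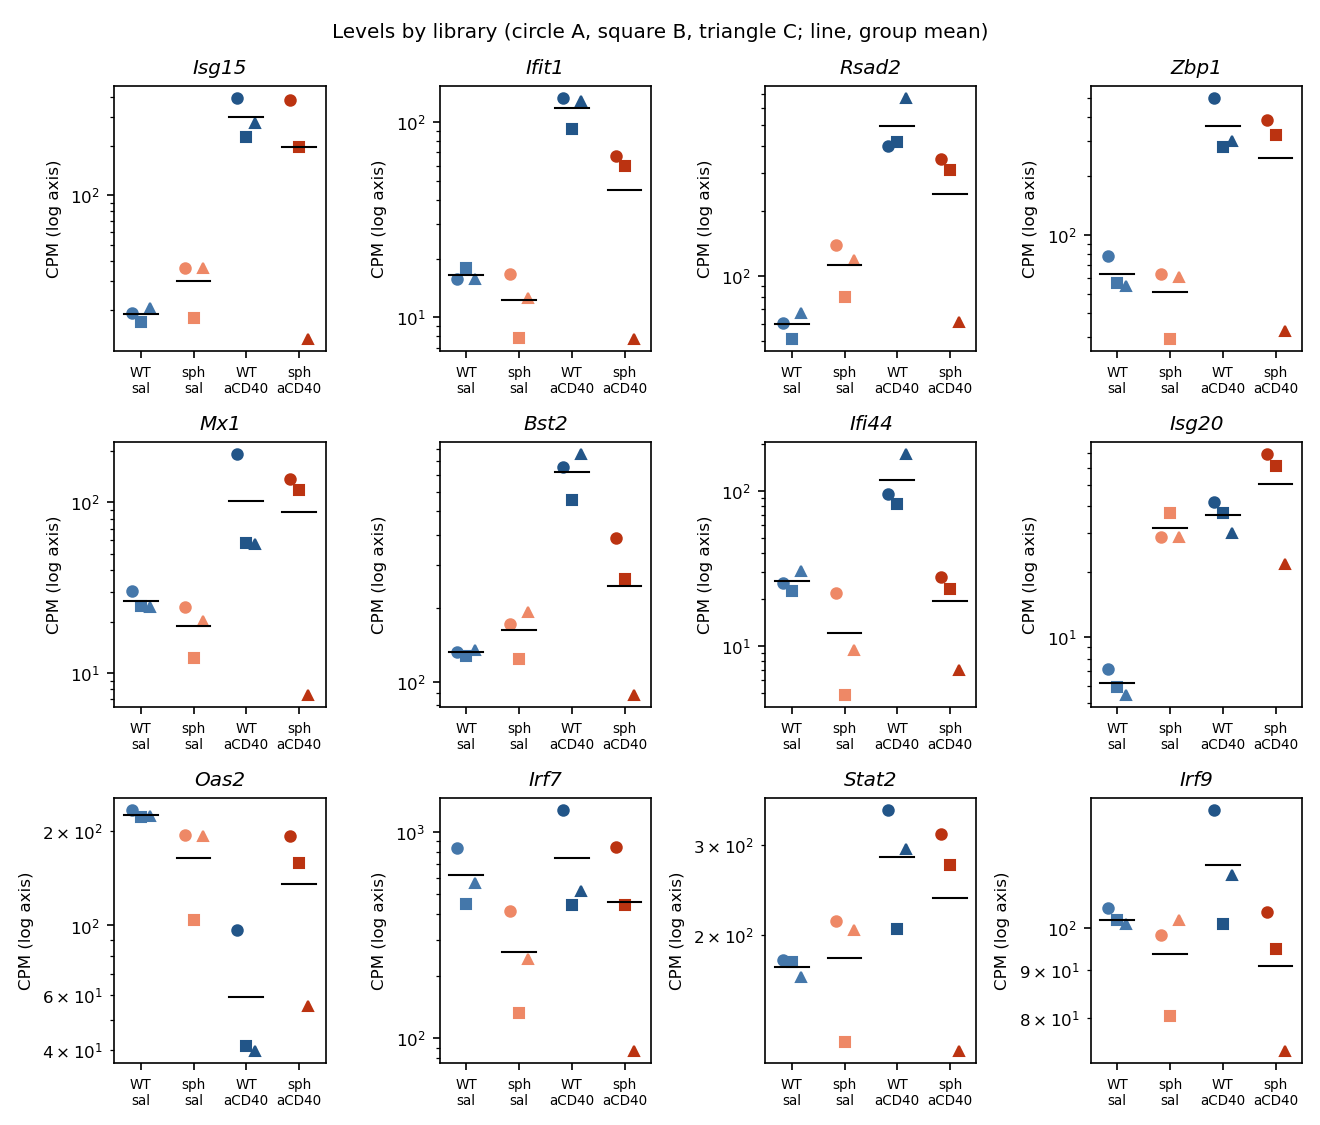
Level in CPM (log axis) of 12 of the 34 genes in each library, by group (sal, saline; aCD40, anti-CD40; circle A, square B, triangle C; black line, group mean). In sph/sph anti-CD40 the triangle lies below the circle and the square for every gene shown, and for Bst2 and Ifi44 all 3 symbols lie below those of WT anti-CD40.

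The test of the difference itself, the response of sph/sph minus the response of WT, called 0 members in either direction with edgeR (3.18% of all genes were higher and 1.12% lower), with 4 members at an unadjusted p under 0.05, as were 2603 of 13844 genes. DESeq2 called 2 lower, Isg20 and Bst2, and limma-voom called 0, with no share of all genes given for either method. The values nearest the threshold were Isg20 (-1.88 ± 0.50, adjusted p = 0.0650), Bst2 (-1.86 ± 0.60, adjusted p = 0.119), Rsad2 (-1.97 ± 0.72, adjusted p = 0.170) and Oas2 (1.66 ± 0.67, adjusted p = 0.208). Without sph/sph anti-CD40 C, Isg20 (-1.49, adjusted p = 0.0109) and Bst2 (-1.44, adjusted p = 0.0412) had a smaller response in sph/sph, and the response of Oas2 differed in the positive direction (2.06, adjusted p = 0.0476), with 2.40% of all genes lower and 4.30% higher. Without sph/sph anti-CD40 A, Isg20 (-2.17, adjusted p = 0.0446) and Bst2 (-2.34, adjusted p = 0.0487) were called as well. The share of all genes called in that fit is not given. The median of the members was -0.23 with C and 0.14 without it.

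Under saline 1 member, Isg20, differed by genotype and 0 were called lower. It was at 29.0, 37.0 and 28.9 CPM in sph/sph saline, against 5.43 to 7.13 CPM in WT saline, with no overlap and a log2 difference of 2.36 ± 0.37 (adjusted p = 0.0107). Among all genes, 1.60% were higher and 0.433% lower. The level of Isg20 in sph/sph saline was within the range of WT anti-CD40 (30.0 to 41.7 CPM) or just below it. Of all 34 members 5 had a log2 difference above 0, the median was -0.28 against 0.01 over all genes, and 2 had an unadjusted p under 0.05, as had 1817 of 13844 genes.
Groups did not overlap for 2 members that were higher (Isg20 and Rsad2) and for 10 that were lower, against 16.7% and 14.3% of all genes. Rsad2 differed by 0.92 ± 0.51 (adjusted p = 0.502). Oasl1 (-1.83 ± 0.82, adjusted p = 0.379) and Irf7 (-1.24 ± 0.73, adjusted p = 0.532) had the lowest differences, and every sph/sph saline library of both lay below every WT saline library. For both genes sph/sph saline B was the lowest library, at 5.22 CPM for Oasl1 and 132 CPM for Irf7. Without WT saline B or WT saline C, with limma-voom, or without the 4 libraries that have no Y-linked counts (0.0926% of all genes then higher), Isg20 was not called.
Erythroid markers were high in the same sph/sph libraries, as given above, and their part in the Isg20 level was not tested.

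The interferons themselves were scarcely detected. Of 20 interferon genes, 19 of them type I or type III, only Ifng passed the filter on low counts. Over all 12 libraries together Ifna4 had 7 counts, Ifna2 5, Ifnb1 3 and Ifna5 3, in 2 libraries each, and the other type I and type III genes had 0 or 1. At this depth a level of type I interferon RNA in the bead-enriched cells was not measurable. Ifng, made by T and NK cells, was at 16.2, 37.1 and 16.5 CPM in WT anti-CD40 and at 1.24, 0.148 and 0.432 CPM in sph/sph anti-CD40. It was between 0 and 0.237 CPM in the saline libraries. It rose in wild-type mice (log2 fold 8.46 ± 1.07, adjusted p = 0.000298) and was lower in sph/sph than in WT under anti-CD40 (-5.24 ± 0.86, adjusted p = 0.00277). The response of Ifng in sph/sph (log2 fold 2.24) and the interaction (-6.22) were not called, with or without sph/sph anti-CD40 C. Markers of T and NK cells (11 genes) summed to 190.3, 1446 and 557 CPM in WT anti-CD40 and to 49.2, 4.88 and 82.8 CPM in sph/sph anti-CD40. Their part in the level of Ifng was not tested.

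Among 6 receptor chains, 1 rose and 3 fell in wild-type mice, where 19.4% of all genes rose and 19.7% fell. In sph/sph 0 were called, and without sph/sph anti-CD40 C 1 rose (Ifnlr1) and 2 fell (Ifngr1 and Il10rb), against 9.83% and 7.04% of all genes. Ifnar1 was not called, at 118, 114 and 132 CPM in WT saline and 135, 119.8 and 109 CPM in WT anti-CD40. Its partner Ifnar2 went from 293, 251 and 284 CPM to 163, 127 and 161 CPM (-0.88 ± 0.17, adjusted p = 0.00299), and Ifngr1 from 657, 620.2 and 781 CPM to 121, 154 and 125 CPM (-2.36 ± 0.20, adjusted p = 3.36e-05). In sph/sph anti-CD40, Ifnar2 was at 162, 144 and 141 CPM, within the treated wild-type range, and Ifngr1 at 229, 291 and 316 CPM, above it (sph/sph against WT, 1.06 ± 0.19, adjusted p = 0.00480). The response of Ifngr1 differed between genotypes by the interaction test (1.55 ± 0.27, adjusted p = 0.0120).

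Of 11 signalling genes and factors, 6 rose (Irf1, Irf8, Jak2, Socs1, Socs3 and Stat3) and 2 fell (Irf2 and Pias1) in wild-type mice. Among all genes 19.4% rose and 19.7% fell, so the share that fell was near that of all genes. In sph/sph 0 were called, and without sph/sph anti-CD40 C 4 rose and 1 fell there, against 9.83% and 7.04% of all genes. Irf1, a factor induced by interferon gamma, was at 241, 204 and 151 CPM in WT saline and at 832, 648 and 707 CPM in WT anti-CD40 (1.87 ± 0.45, adjusted p = 0.00912). In sph/sph anti-CD40 it was at 499, 399 and 113 CPM, again with C low.
Irf8, a lineage factor of mononuclear phagocytes, separated the genotypes in all libraries under anti-CD40 but not under saline. It was at 969.7, 713 and 817 CPM in WT anti-CD40 and at 371, 266 and 331 CPM in sph/sph anti-CD40 (-1.37 ± 0.22, adjusted p = 0.00273), where library C was not the lowest. Under anti-CD40 4 of the 11 were lower in sph/sph (Irf8, Jak2, Socs1 and Stat3), against 6.19% of all genes. The interaction was called lower for Irf8 (-1.41 ± 0.31, adjusted p = 0.0340) and Jak2 (-0.98 ± 0.22, adjusted p = 0.0343), against 1.12% of all genes. Socs1, which inhibits the receptor kinases, was at 37.6, 48.8 and 58.7 CPM in WT anti-CD40 and at 14.2, 2.74 and 1.78 CPM in sph/sph anti-CD40.

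**Figure D5:**
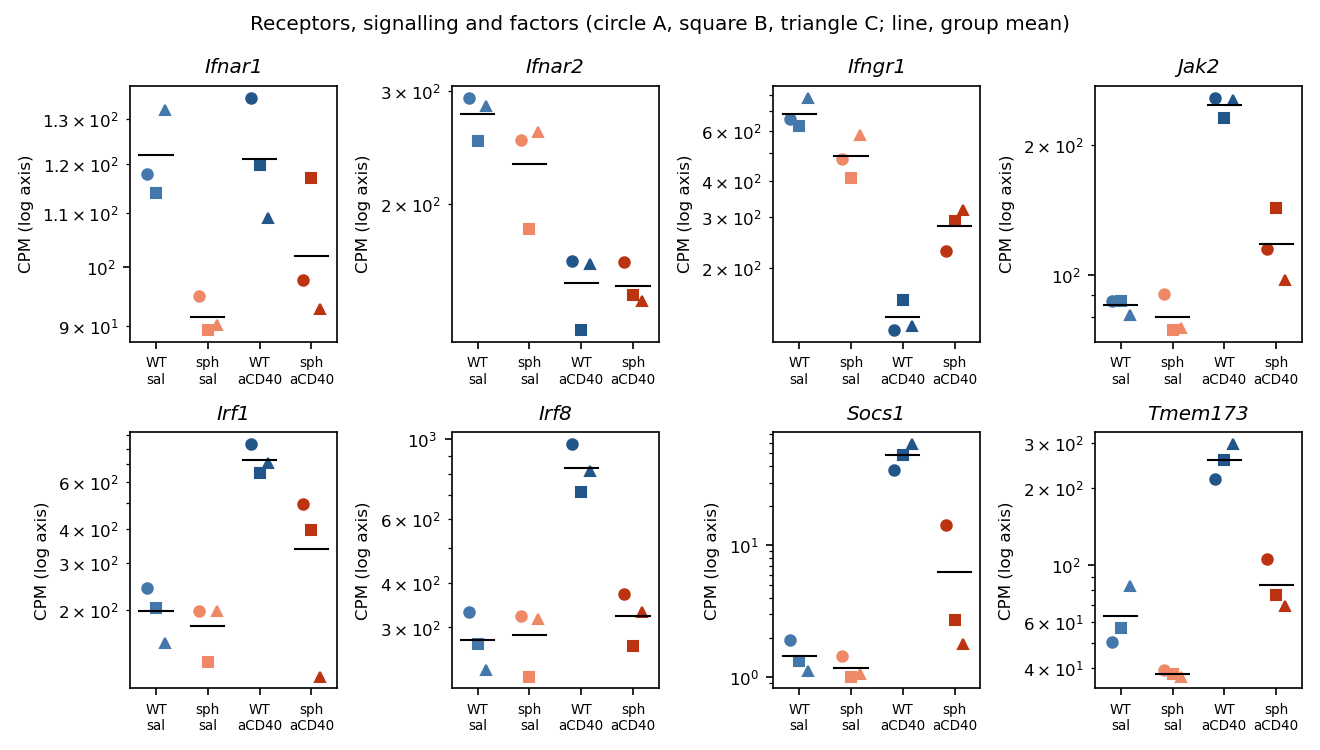
Level in CPM (log axis) of receptor chains, signalling genes, factors and Tmem173 in each library, by group (sal, saline; aCD40, anti-CD40; circle A, square B, triangle C; black line, group mean). For Irf1 the triangle of sph/sph anti-CD40 lies apart below, whereas for Ifnar2, Irf8 and Tmem173 the 3 symbols of that group lie close together.

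Of 16 genes that sense nucleic acid or carry the signal that induces interferon, 4 rose (Adar, Tbk1, Tlr9 and Tmem173) and 4 fell (Irf3, Mavs, Tlr7 and Tlr8) in wild-type mice, shares near the 19.4% and 19.7% of all genes. Tmem173, the adaptor STING, was at 50.3, 56.9 and 83.4 CPM in WT saline and at 216, 257 and 296 CPM in WT anti-CD40 (2.01 ± 0.23, adjusted p = 0.000146). It also rose in sph/sph (1.15 ± 0.22, adjusted p = 0.0491), to 106, 76.7 and 69.7 CPM, and stayed lower there than in WT (-1.61 ± 0.22, adjusted p = 0.00114). Tlr9, the endosomal DNA receptor, was the other gene of this list that rose in sph/sph with all libraries (2.13 ± 0.31, adjusted p = 0.0237). Without sph/sph anti-CD40 C, 8 of the 16 rose and 2 fell there, against 9.83% and 7.04% of all genes. In wild-type mice 7 rose and 4 fell in that fit, against 23.4% and 23.4% of all genes.
Tlr8 fell from 169.8, 155 and 227 CPM to 8.58, 4.51 and 3.5 CPM in wild-type mice, and was at 62.2, 102 and 108 CPM in sph/sph anti-CD40 (interaction 4.30 ± 0.48, adjusted p = 0.00101). Kupffer cell markers were low in the same WT anti-CD40 libraries, as given above, and their part in the level of Tlr8 was not tested.

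Genes induced mainly by interferon gamma were high in the same libraries as the members. Of 20 such genes, 16 rose and 1 (Gbp2b) fell in wild-type mice, against 19.4% and 19.7% of all genes. Their median log2 fold was 3.01. In sph/sph 0 were called with all libraries (0.578% of all genes rose and 0.202% fell), and the median was 2.09. Without sph/sph anti-CD40 C 16 rose and 0 fell there, against 9.83% and 7.04% of all genes. Cxcl9, a chemokine that draws T cells, was at 3973, 3813 and 6311 CPM in WT anti-CD40 and at 788, 683 and 12.8 CPM in sph/sph anti-CD40, against 20.2 to 36.4 CPM in WT saline. Gbp5 was at 807, 473 and 728 CPM in WT anti-CD40 and at 519, 542 and 41.5 CPM in sph/sph anti-CD40. Library C of sph/sph anti-CD40 was the lowest of its group for every gene of this list except Ciita. Ciita was at 47.9, 32.2 and 128 CPM there, with C the highest. With all libraries, 1 of the 20 genes (Gbp4) was called lower in sph/sph than in WT under anti-CD40, against 6.19% of all genes. Without C, 6 were lower (Gbp4, Igtp, Tgtp1, Ciita, Cxcl9 and Ubd) and 1 higher (Gbp8), against 10.8% and 13.5% of all genes. The interaction without C was called lower for 2 and higher for 1, against 2.40% and 4.30% of all genes.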

How the data were processed

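RNA of F4/80-enriched liver cells from 12 mice was sequenced. The authors deposited read counts per gene, not normalized. The tools named in the submitters' processing notes are featureCounts, STAR 2.7.0e and SAMtools 1.9, with genome build GRCm38.p5. No annotation release and no strand setting is stated for the counting.

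The 34 members and the pathway and marker lists were chosen with earlier results of these data known. Identifiers were matched to symbols for 25587 of 25700 genes. Counts were filtered by filterByExpr, scaled by TMM and fitted with edgeR 4.0.16 (R 4.3.3, robust quasi-likelihood, 1 mean per group, all 12 libraries, common biological coefficient of variation 0.382). The adjusted p covers 13844 genes, and a gene was called under 0.05. SE is the absolute log2 fold over the square root of F. Alternatives were DESeq2 1.42.0, limma-voom (limma 3.58.1), RLE scaling, no filter, other sets of libraries and a term for sex. The edgeR fit was tested on simulated data. Levels in every library are printed for the members with the highest and lowest folds, those called between genotypes under anti-CD40, and Stat2, Irf9, Irf7 and Isg15. 1 gene of the pathway lists is not reported here.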

Additional observations from a re-analysis of the deposited data

How the results depend on the processing

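Calls of Oas2, Isg20, Bst2 and Rsad2 in the wild-type response held in all 19 alternatives. Isg15 and Ifit1 lost the call only without the 4 libraries that have no Y-linked counts (an alternative chosen after seeing the data), and the other 9 members lost it in 3 to 6 alternatives. No log2 fold of a called member changed sign. The count of members that rose in WT was 14, ran from 5 to 26 when single libraries were left out, and was 26 in a fit on the 2 groups compared only and 3 without the libraries that have no Y-linked counts. In sph/sph it was 0, ran from 0 to 23 when single libraries were left out, and was 3 with DESeq2. The 23 came without sph/sph anti-CD40 C, which was set apart after seeing its values of these members. Under saline the count higher was 1, and it was 0 with limma-voom and without the libraries that have no Y-linked counts, and 0 to 1 with single libraries left out. Under anti-CD40 the count of members lower in sph/sph was 2. It ran from 0 to 3 with single libraries left out (higher, 0 to 2), was 0 in the fit on the 2 groups compared only, and was 1 without the libraries that have no Y-linked counts. In the interaction 2 members were lower with DESeq2, and with single libraries left out 0 to 2 were lower and 0 to 1 higher. The response element was in 13 promoter windows, and its form shorter by 1 base in 14. The cause of these shifts was not tested. Most fits with a single library left out have no share of all genes beside their counts. Nor have DESeq2, limma-voom and the fit on the 2 groups compared only. No paired analysis was possible because the columns of the count table carry no replicate number, and the number that the A libraries of both genotypes share under each treatment ties only 1 library a group. The main limits are 3 libraries a group, 1 library far from its group, 4 libraries whose Y-linked counts go against the labels, a bead enrichment in which cell type marker levels differed between groups, and a single time point.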
